A study of Homo sapiens with 5 samples.

Results

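The genes described here encode the enzymes of glycolysis, the carrier and enzyme complex that bring pyruvate into the mitochondrion, and the enzymes of the citric acid cycle with a few that flank it. They were taken from a list of gene symbols, and no measured value entered the rule, but the list was chosen with earlier results of these data known. Of 43 listed symbols, 41 had a probe among the 9268 genes named in the deposited values, which cover 14747 probes. FH and PC had none there and were not analysed here. The samples were LX-2 cells, an established human line of hepatic stellate origin. Stellate cells deposit the matrix of a fibrotic liver. All 5 samples had received a biotin-tagged duplex of miR-25-3p (50 pmol) by transfection and were harvested after 24 h. RNA captured on streptavidin beads (pull-down, 3 arrays) was compared with RNA of the total lysate of the transfected cells (labelled Control, 2 arrays). LX-2 is a single established line, every sample carried the duplex, and no pull-down with another duplex or with beads alone was analysed here, so capture by miR-25-3p cannot be told apart from binding to the beads by other means.

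Glycolysis runs in the cytosol and splits glucose into pyruvate, yielding ATP and NADH, and lactate dehydrogenase turns pyruvate into lactate when NADH has to be reoxidized. Pyruvate crosses the inner mitochondrial membrane through the mitochondrial pyruvate carrier, and the pyruvate dehydrogenase complex converts it to acetyl-CoA. The citric acid cycle oxidizes acetyl-CoA in the matrix and feeds the respiratory chain. Stellate cells that become myofibroblasts are known to raise glycolysis and lactate production.

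The bait of the pull-down was miR-25-3p. A miRNA pairs with its targets chiefly through its seed, bases 2 to 8 from the 5′ end, and mature miRNAs with the same seed are expected to share many sites. The mature sequence in RefSeq (GRCh38.p14, chr7:100093571-100093592, minus strand) is shown with 1 relative, miR-92a-3p (chr13:91351361-91351382, plus strand, and a second copy on the X chromosome), because both carry the same seed, which is in capitals.
miR-25-3p: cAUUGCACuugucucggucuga
miR-92a-3p: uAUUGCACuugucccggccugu
The same seed is found in 6 mature human miRNAs encoded at 7 loci. Transcript sequences of the enzymes were not at hand, so sites for this seed were not searched.

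Values are the deposited normalized expression values on a log2 or log2-like scale, 1 for each probe and array, and each gene is represented by the probe whose mean over the 5 arrays was highest. Differences are pull-down minus lysate, with groups taken from the sample titles, and a gene was called at an adjusted p under 0.05 in limma, adjusted over all 14747 probes. This direction opposes the one in which the study read enrichment, since the genes it selected are lower in the pull-down by the sample titles. The arrays have nearly the same distribution (medians 9.01 to 9.03), so a value is relative to the other probes and does not measure how much of an mRNA was captured. Correlations over all probes were 0.963 to 0.985 between pull-down arrays, 0.980 between the lysate arrays and 0.902 to 0.951 between groups. Of 9 stellate cell markers 7 had a named probe among the deposited values, DES and LRAT having none. In the lysate vimentin (VIM, 14.21 and 14.05), TIMP1, SPARC and COL1A1 were bright and ACTA2 (9.89 and 10.64) above the array median, while COL1A2 (8.54 and 8.33) and PDGFRB (8.54 and 8.33) were below it. Of other cell types, the leukocyte marker CD68 was bright (12.21 and 12.06). CD14 and the hepatocyte markers ALB and SERPINA1 were below the array median. The cholangiocyte and endothelial markers had no named probe among the deposited values. With 3 arrays against 2 the smallest exact permutation p is 0.1, and limma, in which probes share information on the spread, served for the tests of each gene.

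Of 7 genes of pyruvate entry 4 were called higher in the pull-down, of 18 genes of glycolysis 1 was called lower, and of 11 genes of the cycle 3 were called higher and 2 lower. The remaining called gene was MDH1, a cytosolic enzyme beside the cycle. Over all 41 genes limma called 8 higher and 3 lower. Of all probes 14.7% were called, 7.64% higher and 7.09% lower, and of the named genes, each by its own representative probe, 13.8% were called, 7.1% higher and 6.72% lower. The 8 genes called higher were MPC2, MDH1, MPC1, MDH2, PDHX, DLD, SUCLA2 and SUCLG1, and the 3 called lower were ALDOA, IDH2 and IDH3A. At an unadjusted p under 0.05 there were 13 higher and 4 lower. The median difference of the 41 genes was 0.18, and that of all probes 0.04. The pull-down arrays lay all above the lysate arrays for 19 of the 41 genes and all below for 6, against 27.8% and 21.4% of named genes (29% and 22.4% of probes).

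The number of calls depended on each array. When lysate replicate 1 was left out, limma called 0 of the 41 genes and 0 probes in all, with 12 members higher and 3 lower at an unadjusted p under 0.05. It also called 0 members without lysate replicate 2, where 91 probes were called, with 10 higher and 6 lower at an unadjusted p under 0.05. Without pull-down replicate 2 it called 1 member (MPC1) and without pull-down replicate 3 it called 2 (IDH2 and MDH1), while without pull-down replicate 1 it called 8 of the same 11. All 11 kept their direction in each of these fits. This was fixed in advance, since their groups do not overlap and leaving out an array cannot reverse the difference.

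**Figure D1:**
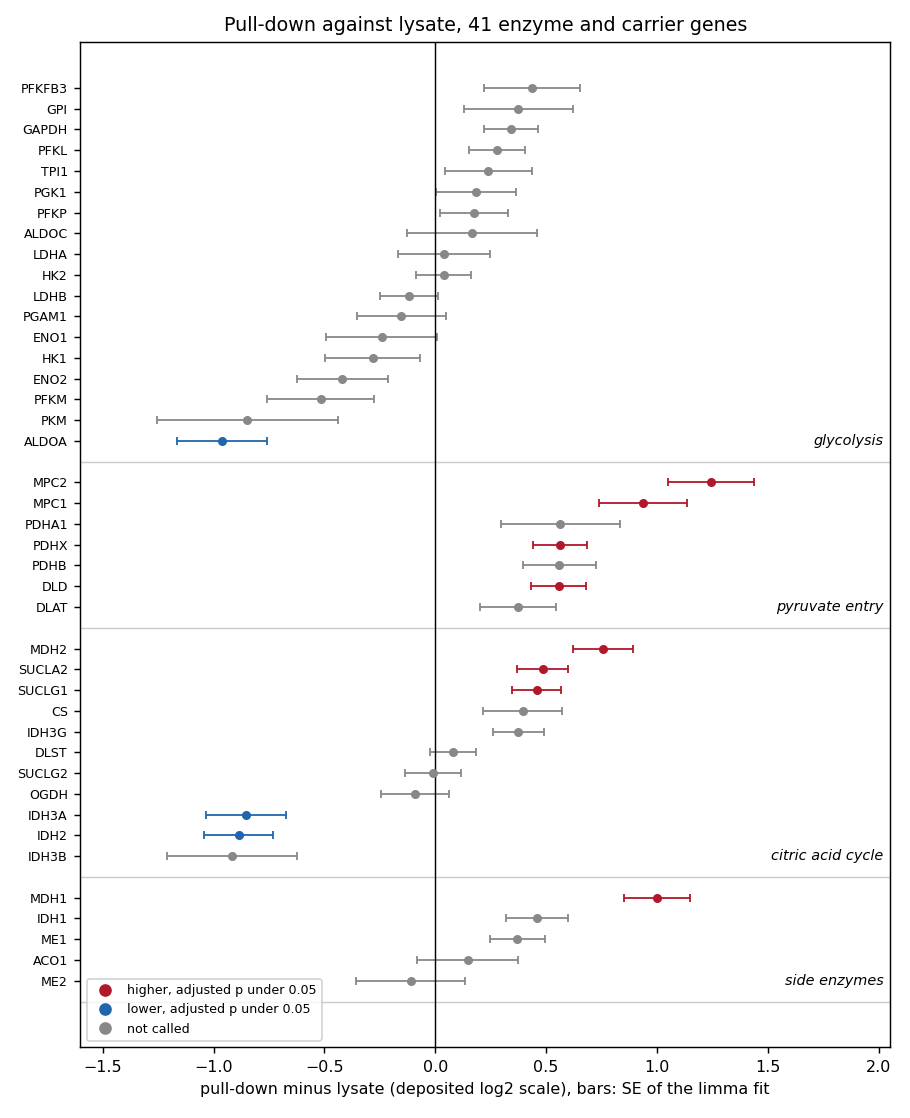
Difference between pull-down and lysate on the deposited log2 scale (horizontal axis) for each of the 41 genes, ordered within glycolysis, pyruvate entry, citric acid cycle and side enzymes. Points are limma estimates with their SE, red where called higher (8 genes), blue where called lower (3 genes) and grey where not called, and all 7 pyruvate entry genes lie to the right of 0.

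In pyruvate entry 4 of 7 measured genes were called higher and 0 lower, and PDHA1, PDHB and DLAT did not pass. Only MPC1 stayed called without pull-down replicate 2, and none of the 4 without pull-down replicate 3. None of the 4 passed with the replicate number as a block, which gave the same differences as leaving out pull-down replicate 3. All 4 calls were lost when either lysate array was left out. All 7 genes had every pull-down array above both lysate arrays, as 27.8% of named genes did. Their median difference was 0.56, or 1.48-fold, and the range was 0.37 to 1.24. The median was 0.49 to 0.68 when any single array was left out.

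The 2 subunits of the mitochondrial pyruvate carrier, which work only as a pair in the inner membrane, had the largest differences of this group. MPC2 measured 10.63, 10.46 and 10.78 on the pull-down arrays and 9.12 and 9.64 on the lysate arrays. The lysate arrays lay 0.52 apart, and all pull-down arrays were well above both. The difference was 1.24 (SE 0.19), or 2.37-fold, with a limma adjusted p = 0.018, and MPC2 was the only one of the 41 genes that was called with a change of at least 2-fold. No member was called lower by at least 2-fold. Calls of at least 2-fold made up 2.81% (higher) and 3.09% (lower) of all probes, and 2.41% and 3.02% of named genes. MPC1 measured 12.03, 11.41 and 11.84 in the pull-down and 10.81 and 10.84 in the lysate, a difference of 0.94 (SE 0.20, 1.91-fold, limma adjusted p = 0.0341). The lysate arrays were nearly equal and pull-down replicate 2 was the lowest of its group. A second, dimmer MPC1 probe gave 0.82 (limma adjusted p = 0.0263), so both probes were called.

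The pyruvate dehydrogenase complex joins 3 catalytic components, a decarboxylase (PDHA1 and PDHB), an acetyltransferase (DLAT) and a dehydrogenase (DLD), and PDHX tethers DLD to the DLAT core. PDHX measured 9.46, 9.57 and 9.35 in the pull-down against 8.96 and 8.84 in the lysate (difference 0.56, SE 0.12, limma adjusted p = 0.0359). DLD, which also serves the 2-oxoglutarate dehydrogenase complex, measured 10.51, 10.37 and 10.25 against 9.83 and 9.82 (difference 0.56, SE 0.12, limma adjusted p = 0.0381). The SD of the pull-down arrays was 0.11 for PDHX and 0.13 for DLD, and the groups did not overlap for either gene. PDHB had a difference of the same size, 0.56, with a larger SE of 0.16 (limma adjusted p = 0.0762). PDHA1 measured 10.97, 10.21 and 10.19 against 9.78 and 10.01, so that its difference of 0.56 drew mostly on pull-down replicate 1 (SE 0.27, limma adjusted p = 0.217). DLAT was the lowest of the group at 0.37 (limma adjusted p = 0.205), with 9.22, 9.49 and 9.06 against 9.02 and 8.75, and its lowest pull-down value lay just above the higher lysate value.

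**Figure D2:**
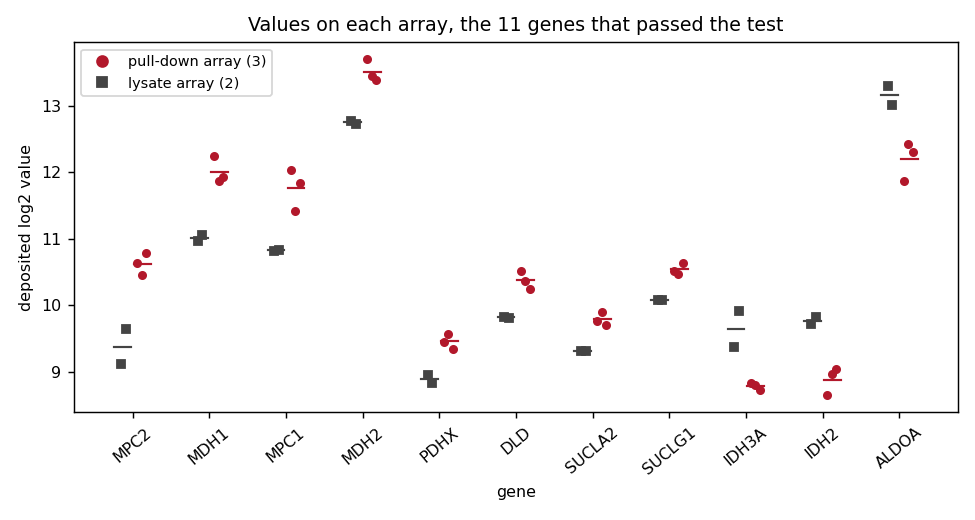
Deposited log2 value (vertical axis) of the 11 called genes on each array, with pull-down arrays as red circles, lysate arrays as dark squares and group means as lines. The groups do not overlap for any of the 11 genes, and the lysate squares lie farthest apart for IDH3A and MPC2.

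The citric acid cycle showed no common direction. Of 11 measured enzyme genes 3 were called higher, 2 lower and 6 not, and the median difference was 0.08. The pull-down arrays lay all above the lysate arrays for 6 genes, all below for 3 and overlapped for 2. Of named genes 27.8% lay all above and 21.4% all below.

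MDH2, the mitochondrial malate dehydrogenase that regenerates oxaloacetate, measured 13.70, 13.44 and 13.39 in the pull-down and 12.78 and 12.73 in the lysate. The difference was 0.76 (SE 0.14, 1.69-fold, limma adjusted p = 0.0235), several times the spread of the lysate arrays. Citrate synthase (CS), which condenses oxaloacetate with acetyl-CoA, measured 12.15, 11.65 and 11.85 against 11.38 and 11.60 by the probe used (difference 0.39, limma adjusted p = 0.2). Its other probes gave 0.07 (limma adjusted p = 0.791) and -0.32 (limma adjusted p = 0.361), so no direction can be given for CS.

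Succinyl-CoA ligase pairs a common subunit, SUCLG1, with either SUCLA2, which makes ATP, or SUCLG2, which makes GTP. SUCLG1 measured 10.52, 10.47 and 10.63 in the pull-down and 10.08 and 10.09 in the lysate (difference 0.46, SE 0.11, limma adjusted p = 0.0475). SUCLA2 measured 9.77, 9.91 and 9.71 against 9.31 on both lysate arrays (difference 0.48, SE 0.12, limma adjusted p = 0.0455), and its second probe gave 0.45 (limma adjusted p = 0.0915). Both were close to the threshold, and their lysate arrays agreed to within 0.01. SUCLG2 measured 10.30, 10.32 and 10.08 against 10.20 and 10.28, which overlap, with a difference of -0.01 (SE 0.13, limma adjusted p = 0.964). Within each array, SUCLG1 minus SUCLG2 was 0.22, 0.15 and 0.55 in the pull-down and -0.12 and -0.19 in the lysate. The shift of 0.47 had an exact permutation p = 0.1, the smallest that 3 arrays against 2 allow.

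The isocitrate dehydrogenases differed among themselves. IDH3, the NAD-dependent enzyme of the cycle, is built of the catalytic subunit IDH3A with IDH3B and IDH3G. IDH3A measured 8.83, 8.81 and 8.72 in the pull-down and 9.37 and 9.91 in the lysate, a difference of -0.85 (SE 0.18, 1.81-fold lower, limma adjusted p = 0.0337). The pull-down arrays lay close together and the lysate arrays 0.54 apart. IDH3B measured 9.90, 10.28 and 9.98 against 11.44 and 10.50, a difference of -0.92 that was not called (SE 0.29, limma adjusted p = 0.0931). Here the lysate arrays lay 0.94 apart, with replicate 1 the higher, opposite to their order for IDH3A. IDH3G measured 8.95, 9.01 and 8.90 against 8.49 and 8.66 (difference 0.38, limma adjusted p = 0.086). IDH3A minus IDH3G within an array was -0.12, -0.20 and -0.17 in the pull-down and 0.88 and 1.25 in the lysate, a shift of -1.23 (exact permutation p = 0.1), and IDH3B minus IDH3G shifted by -1.29 (exact permutation p = 0.1). Of the 3 subunits only IDH3A was called.

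IDH2, the NADP-dependent mitochondrial enzyme, was called lower. It measured 8.65, 8.96 and 9.04 in the pull-down and 9.71 and 9.83 in the lysate, a difference of -0.89 (SE 0.15, 1.85-fold lower, limma adjusted p = 0.0219). The lowest pull-down value was replicate 1, and the groups were clearly apart. Its cytosolic counterpart IDH1 had a difference of 0.46 (SE 0.14) that was not called (limma adjusted p = 0.0829), and the dimmer IDH1 probe gave 0.26 (limma adjusted p = 0.346).

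The 2-oxoglutarate dehydrogenase complex shares DLD with the pyruvate complex. Its own decarboxylase OGDH measured -0.09 (limma adjusted p = 0.721) and its succinyltransferase DLST 0.08 (limma adjusted p = 0.646). OGDH was the dimmest of the 41 genes' probes in the lysate, at 8.26 and 7.96.

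Of the 5 side enzymes, MDH1 alone was called. This cytosolic malate dehydrogenase carries reducing equivalents in the malate-aspartate shuttle. It measured 12.24, 11.87 and 11.92 in the pull-down and 10.97 and 11.05 in the lysate, a difference of 1.00 (SE 0.15) that fell just short of 2-fold, with a limma adjusted p = 0.0171, the lowest of the 41 genes. MDH1 and MDH2, which face each other across the inner membrane, were thus both higher. The cytosolic malic enzyme ME1 measured 0.37 (limma adjusted p = 0.102) and ACO1, the cytosolic aconitase that doubles as an iron sensor, 0.15 (limma adjusted p = 0.701). The mitochondrial malic enzyme ME2 was the lowest of the side enzymes, with 10.24, 9.66 and 9.99 against 9.78 and 10.37 by the probe used (difference -0.11, limma adjusted p = 0.793) and a difference of 0.17 by the other.

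Glycolysis showed no common direction either. Of 18 genes 0 were called higher by limma and 1, ALDOA, lower, with 10 differences above 0 and 8 below, and at an unadjusted p under 0.05 GAPDH was the only other one. The median difference was 0.04, the same as for all probes, and the range was -0.96 to 0.44. The arrays of the groups overlapped for 12 genes, against 0 of the 7 genes of pyruvate entry and 4708 of the 9268 named genes. The median depended on the lysate array: it was -0.19 without lysate replicate 2 and 0.11 without lysate replicate 1.

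At the head of the pathway, hexokinase traps glucose as its phosphate. HK1 measured 11.92, 12.59 and 12.27 in the pull-down and 12.65 and 12.43 in the lysate (difference -0.28, limma adjusted p = 0.423), and HK2 9.85, 9.96 and 9.69 against 9.80 on both lysate arrays (0.04, limma adjusted p = 0.864). Neither isoform moved beyond the spread of its arrays. GPI, which isomerizes glucose phosphate, measured 0.37 (limma adjusted p = 0.357).

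Phosphofructokinase, the committed step, has a liver (PFKL), a muscle (PFKM) and a platelet (PFKP) subunit. PFKL measured 9.02, 9.10 and 9.02 against 8.90 and 8.64, all above the lysate but not called (0.28, limma adjusted p = 0.199). PFKM measured 9.61, 9.22 and 8.99 against 10.06 and 9.53, with a difference of -0.52 (limma adjusted p = 0.21), and PFKP 10.57, 10.37 and 10.49 against 10.11 and 10.49 (0.18, limma adjusted p = 0.485). PFKM and PFKP overlapped between groups. PFKFB3, which makes the activator of phosphofructokinase, had the highest difference in glycolysis, 0.44 (SE 0.22, limma adjusted p = 0.23), with 10.60, 9.98 and 10.01 against 9.74 and 9.78. Its excess came mostly from pull-down replicate 1.

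Aldolase cleaves the sugar bisphosphate. ALDOA measured 11.87, 12.42 and 12.30 in the pull-down and 13.30 and 13.02 in the lysate, a difference of -0.96 (SE 0.20, 1.95-fold lower, limma adjusted p = 0.0336). All pull-down arrays were lower, replicate 1 the most. The other ALDOA probe gave a similar difference of -1.10 with a wide SE of 0.47 (limma adjusted p = 0.18), since pull-down replicate 1 measured 10.58 there and replicates 2 and 3 12.20 and 11.86. ALDOC, the isoform known from brain, measured 9.89, 9.49 and 9.16 against 9.70 and 9.00 (0.16, limma adjusted p = 0.739), which overlap. ALDOA minus ALDOC within an array shifted by -1.12 (exact permutation p = 0.2).

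GAPDH, which is often used as a reference gene, measured 14.22, 14.25 and 14.19 in the pull-down and 14.00 and 13.76 in the lysate. All pull-down arrays lay above the lysate, but the difference of 0.34 (SE 0.12, 1.27-fold) was not called (limma adjusted p = 0.121). The other GAPDH probes gave 0.36 and 0.43 (limma adjusted p = 0.134 and 0.0977), likewise without overlap. TPI1, which interconverts the triose phosphates, measured 0.24 by the probe used and 0.22 by the other (limma adjusted p = 0.458 and 0.551). PGK1, which makes the first ATP of the pathway, measured 0.18 by the probe used (limma adjusted p = 0.539), while a dimmer PGK1 probe was called higher at 0.70 (limma adjusted p = 0.029). Both probes were above 0, and the call depended on the probe.

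In the lower part, the mutase PGAM1 measured -0.15 by the probe used and 0.17 by another, neither called. Enolase ENO1 measured 13.97, 14.06 and 13.64 in the pull-down and 14.49 and 13.77 in the lysate (-0.24, limma adjusted p = 0.557), and the neuronal isoform ENO2 9.19, 9.78 and 9.61 against 10.07 and 9.82 (-0.42, limma adjusted p = 0.225). ENO2 lay below the lysate on every pull-down array and ENO1 overlapped. ENO1 lay near the top of the arrays, whose highest values were 14.57 to 14.76, and so are GAPDH and LDHA.

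PKM, pyruvate kinase, had the second lowest difference in glycolysis and a wide spread. It measured 10.15, 11.32 and 11.17 in the pull-down and 12.10 and 11.36 in the lysate, a difference of -0.85 (SE 0.41, limma adjusted p = 0.222). The other PKM probes gave -0.77 and -0.76 (limma adjusted p = 0.123 and 0.242), so 3 probes of 3 were below 0 without a call. LDHA, which reduces pyruvate to lactate, measured 13.76, 13.91 and 13.46 against 13.91 and 13.43 (0.04, limma adjusted p = 0.914), with -0.18 and 0.06 by its other probes. LDHB measured 12.99, 13.05 and 12.91 against 13.24 and 12.96 (-0.12, limma adjusted p = 0.587). For both lactate dehydrogenase subunits the groups overlapped. Several glycolytic genes, GAPDH, PGK1, PGAM1, ENO1 and LDHA among them, have processed pseudogenes or close copies, so that a probe may read more than 1 transcript.

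**Figure D3:**
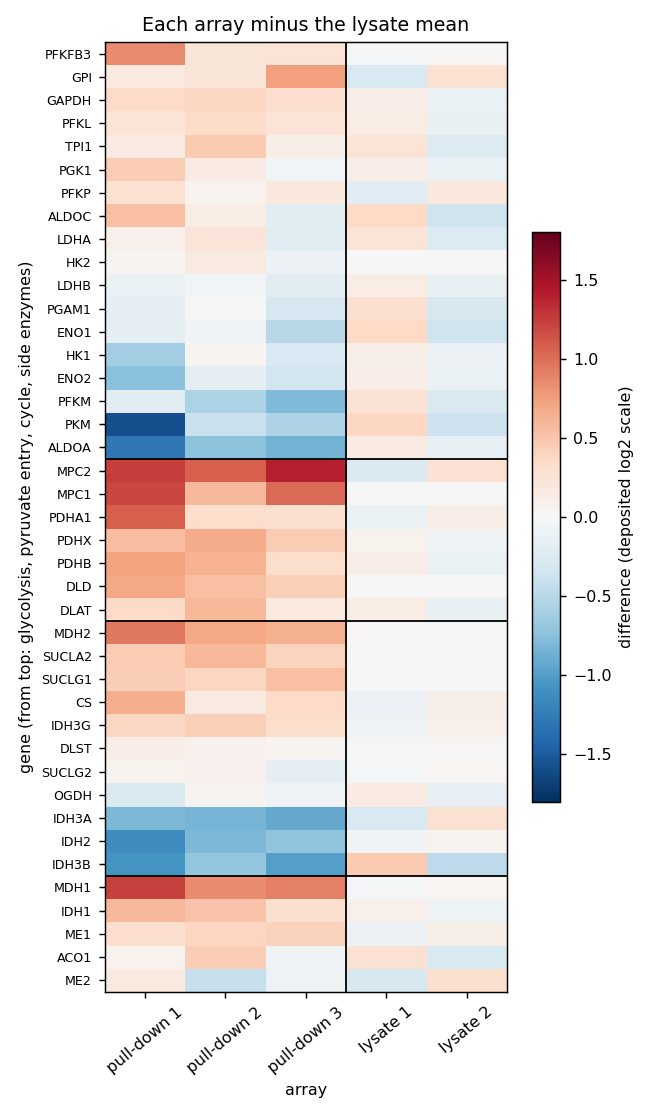
Value of each array minus the mean of the 2 lysate arrays (colour, deposited log2 scale) for the 41 genes (rows, blocks from the top: glycolysis, pyruvate entry, citric acid cycle, side enzymes) on the 3 pull-down and 2 lysate arrays (columns). The pyruvate entry block is above 0 on all 3 pull-down arrays, the glycolysis block is mixed, and in that block 14 of 18 genes are higher on lysate array 1 than on lysate array 2.

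The lysate arrays themselves differed over glycolysis. Lysate replicate 1 exceeded replicate 2 for 14 of the 18 genes with a median of 0.27, while over all probes it did so for 49.7% with a median of 0.00. Among the 19 mitochondrial members it did so for 8, with a median of -0.02. PKM (0.74), ENO1 (0.73), ALDOC (0.70), PGAM1 (0.57), PFKM (0.53), TPI1 (0.48) and LDHA (0.48) had gaps between the lysate arrays as large as or larger than their differences between the groups, PKM excepted, while GPI (-0.55) and PFKP (-0.38) ran the other way. With 1 array on each side this is a description and carries no test. On the pull-down side, replicate 1 stood low for some genes, by 1.09 below the mean of the others for PKM, 0.51 for HK1, 0.50 for ENO2 and 0.50 for ALDOA, and high by 0.78 for PDHA1 and 0.61 for PFKFB3. Of the 7 stellate cell markers 5 were lowest of the pull-down arrays on replicate 1, COL1A1 (8.87, with 11.53 and 10.13 on the others) and SPARC (10.89, with 12.69 and 11.58) the most, while VIM was highest there and ACTA2 in between. Of the same 7 markers 6 were higher on lysate replicate 1 than on replicate 2, as most genes of glycolysis were, COL1A1 by 1.51, and ACTA2 was lower by 0.75. The part of such array differences in the results was not tested.

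Seen by compartment, 7 of 19 mitochondrial genes were called higher and 2 lower, with a median difference of 0.39. Of 22 cytosolic genes 1 was called higher and 1 lower, with a median of 0.15. Over all named genes 7.1% were called higher and 6.72% lower. With the replicate number as a block, 0 of the 41 genes were called. The labels do not say that this number pairs the arrays, so that fit may join arrays that do not belong together. Of the 7 mitochondrial genes called higher, 4 belonged to pyruvate entry (median 0.56) and 3 to the cycle. The median of the cycle, 0.08, covers genes that lay on both sides, 6 with all pull-down arrays above the lysate and 3 with all below. The shares among named genes were 27.8% and 21.4%. The difference between the groups of genes was not tested, because the genes are not replicates of a condition. On single arrays, the median excess over the lysate mean was 0.72, 0.60 and 0.43 for pyruvate entry on pull-down replicates 1, 2 and 3, 0.12, 0.08 and 0.05 for the cycle, and 0.07, 0.10 and -0.19 for glycolysis. The lysate arrays themselves lay at 0.14 and -0.14 for glycolysis by the same measure. All these values refer to the same mean of 2 lysate arrays, so the pull-down arrays are not independent of each other here.

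The signal in the lysate, which stands for the level in LX-2 only within 1 probe, was weakly and negatively related to the difference. Across the 41 genes Spearman's rho was -0.20 and Pearson's r -0.18, against -0.20 and -0.24 across all named genes. Both axes share the lysate arrays, which by itself favours a negative value, and with the mean of all 5 arrays in place of the lysate the values were -0.0017 and 0.01. Among the 18 genes of glycolysis rho was -0.17 and among the 19 mitochondrial genes 0.19. With the mean of all 5 arrays rho was -0.05 for glycolysis and 0.40 for the mitochondrial genes, against -0.01 across all named genes. The sign of rho thus differed between the 2 groups of genes, and this difference was not tested. The 8 genes with a lysate mean above 12 were HK1, ALDOA, TPI1, GAPDH, ENO1, LDHA, LDHB and MDH2. Of these, MDH2 was called higher and ALDOA lower, and the median difference was -0.04. The 21 dimmer genes held 4 calls higher and 2 lower, and the 20 brighter ones 4 and 1. Calls therefore occurred at both ends of the signal range. The brightest signals in the lysate were nearly all of glycolysis, so signal and pathway cannot be told apart at that end.

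**Figure D4:**
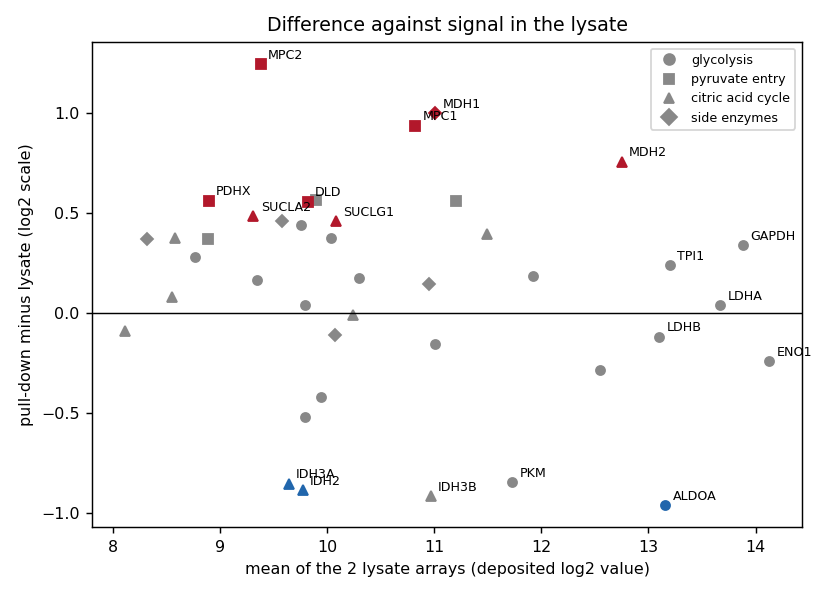
Difference between pull-down and lysate (vertical axis, log2 scale) against the mean of the 2 lysate arrays (horizontal axis, deposited log2 value) for the 41 genes, with the shape giving the pathway and red or blue the calls. Above a lysate value of 12 the points are of glycolysis except MDH2, and genes called higher span lysate values from PDHX (8.90) to MDH2 (12.75).

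Neighbouring steps outside the listed genes were read from further lists of 68 genes, of which 37 had a probe. Limma called 6 of the 37, a total share near the 13.8% of all named genes. By direction 5 of the 37 were higher and 1 lower, against 7.1% higher and 6.72% lower of named genes. The median difference was 0.20. The called genes are given for their own values and say nothing particular about these lists. Of 7 further cycle genes 2 were higher, both assembly factors of succinate dehydrogenase. SDHAF2, which attaches the flavin to the enzyme, measured 11.51, 11.15 and 10.81 in the pull-down and 9.91 and 10.16 in the lysate (difference 1.12, 2.18-fold, limma adjusted p = 0.0296), and SDHAF1, which helps insert its iron-sulfur clusters, measured 9.17, 8.94 and 8.97 against 8.47 and 8.46 (difference 0.56, limma adjusted p = 0.0369). None of the measured subunits was called by limma. SDHA measured 0.00 by the probe used and -0.12 by the other, and SDHD -0.40 (limma adjusted p = 0.164). SDHC measured -0.11 by the probe used (limma adjusted p = 0.564), while its other probe lay above the lysate on every pull-down array, at 0.32 (limma adjusted p = 0.0924).

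GOT1, the cytosolic aminotransferase of the malate-aspartate shuttle, was higher, as MDH1 of the same shuttle was. It measured 10.63, 10.47 and 10.33 against 9.67 and 9.75, a difference of 0.76 (SE 0.13, limma adjusted p = 0.0216), and was the only gene called among 8 of shuttles and carriers. The mitochondrial partner GOT2 measured 0.20 (limma adjusted p = 0.357) and the aspartate-glutamate carriers SLC25A12 and SLC25A13 0.13 and -0.03. In the pentose phosphate pathway 1 of 6 was higher, the epimerase RPE, with 10.47, 10.30 and 10.25 against 9.68 and 9.52 (0.74, limma adjusted p = 0.021). The isomerase RPIA had a difference of 0.74 but a wider SE of 0.20 (limma adjusted p = 0.061).

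Lipoic acid is the cofactor of both dehydrogenase complexes, and 2 genes that supply it were called in opposite directions. LIPT1, a lipoyltransferase, measured 8.52, 8.39 and 8.30 in the pull-down and 7.80 and 7.75 in the lysate and was higher at 0.63 (limma adjusted p = 0.0255, second probe 0.55). Its lysate values lay near the lower end of the arrays. The lowest value of any probe was 7.76 to 7.77 on the pull-down arrays and 7.57 on the lysate arrays. LIPT1 on lysate replicate 2 thus lay below every pull-down value, and the part of this in its difference was not tested. LIAS, the lipoic acid synthase, measured 8.70, 8.50 and 8.58 in the pull-down and 9.13 and 9.23 in the lysate and was lower at -0.58 (limma adjusted p = 0.0296). Among regulators of the pyruvate dehydrogenase complex, the kinase PDK3 measured -0.03 by the probe used and 0.41 by another, and the phosphatase PDP1 0.34, without a call. Limma called 0 of 9 further genes of glycolysis and gluconeogenesis, where BPGM came nearest (0.71, limma adjusted p = 0.0555), and 0 of 3 of glucose and lactate transport, where the glucose transporter SLC2A1 measured -0.23, SLC2A3 -0.57 and the lactate transporter chaperone BSG -0.44. BSG read 9.41 on pull-down replicate 1 and 11.18 and 11.51 on the others, so its value rests on that array.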

How the data were processed

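LX-2 cells were profiled on Illumina HT-12 bead arrays. Per the study's methods, arrays were exported from GenomeStudio and normalized with lumi, and the study describes independent biological replicates. The authors deposited normalized log2 or log2-like values for 14747 probes. Whether these are all probes of the array was not examined, so a gene without a named probe here may still have one on it. Their lumi version and the transform (plain log2, or variance-stabilized) were not given in the sources used here. Variance stabilization would compress differences of dim probes. The names of 10 columns of raw signals and detection p-values match no label, and they were left out, so background and detection were not examined. A further lysate array that the study left out was not analysed here.

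Probe symbols came from GEO's platform annotation (1 symbol for 11970 probes, several for 1, none for 2776), and 11963 matched a RefSeq gene ID. All 5 arrays and all probes entered 1 fit (lmFit, then eBayes) in limma 3.58.1 under R 4.3.3, two-sided, with Benjamini-Hochberg adjustment, after tests on simulated data. Residual degrees of freedom were 3, those added by eBayes 2.75, and the SE had a median of 0.15. The number of arrays limits the precision. Shifts between isoforms were tested by exact two-sided permutation over arrays for 14 pairs, and the smallest Benjamini-Hochberg adjusted value was 0.28. In 8 of the 14 pairs the groups did not overlap. Of single named genes 27.8% lay all above and 21.4% all below, and the share for pairs of genes was not computed. Lists were described by counts and medians, with no set test.

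The members and lists were chosen with earlier results of these data known. Values on each array are given for called members, the highest and lowest of each sublist, isoforms of 1 step and GAPDH, and for called genes of the neighbouring lists; a described gene's further probes are named where their call or direction was not the same. BPGM, the SDH subunits, GOT2, RPIA, PDK3, PDP1 and the transporters were named after their values were seen. Alternatives were leaving out each array, the replicate number as a block, median scaling, cyclic loess, a filter on dim probes, an intensity trend, array weights and the mean of a gene's probes.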

Additional observations from a re-analysis of the deposited data

How the results depend on the processing

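All 11 called genes kept their direction under all 12 alternatives, and the number called did not. The groups do not overlap for these genes, so leaving out an array, the replicate block and array weights could not reverse a direction. The intensity trend and the filter on dim probes leave the differences themselves unchanged. With one array left out at a time, limma called 0 to 2389 probes, 0 to 6 members higher and 0 to 2 lower. The median difference then ranged from -0.19 to 0.14 for glycolysis, and rho of difference against lysate signal from -0.31 to -0.090. With the replicate number as a block, 215 probes, 0 members higher and 0 lower were called (9 and 3 at an unadjusted p under 0.05). Pull-down replicate 3 has no lysate of its number, so the block gave the same differences as leaving that array out. The deviations of same-numbered arrays correlated at 0.04 for number 1 and -0.43 for number 2, so the number was not taken to pair them. Pull-down 2 with lysate 1 gave 0.43 and pull-down 3 with lysate 2 gave 0.48, and since 2 lysate deviations mirror each other, each value has its opposite with the other lysate. Lysates came from the transfected cells, but the labels do not say which belongs with which pull-down. The study letters its pull-downs C, G and K and its lysates D, H and L, without saying whether neighbouring letters are pairs. A fit with other pairs was not run, and the block fit may have joined the wrong arrays. With an intensity trend 4 of 41 members were higher and 3 lower, and 2680 of 14747 probes were called. Without the dimmest probes (11060 left) 5 of 40 members were higher and 3 lower, and 2217 probes were called. In both fits the share of members called was near that of all probes. The median of the cycle was 0.23 without the dimmest probes, since OGDH fell out. Median scaling and array weights kept all 11 calls. Cyclic loess lost SUCLG1, and the mean of all probes lost ALDOA. The cause of the other changes was not tested.

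Genes that were not called changed sign as follows with one array left out: ACO1 ranged from -0.12 to 0.41, ALDOC from -0.19 to 0.52, ENO1 from -0.61 to 0.12, HK2 from -0.027 to 0.11, LDHA from -0.20 to 0.28, LDHB from -0.26 to 0.022, ME2 from -0.40 to 0.18, OGDH from -0.24 to 0.055, PFKP from -0.013 to 0.36, PGAM1 from -0.44 to 0.13, SUCLG2 from -0.054 to 0.067 and TPI1 from -0.0025 to 0.48. SUCLG2 was 0.067 with the block, LDHA -0.073 with cyclic loess, and with the mean of all probes LDHA was -0.029, ME2 0.032 and PGAM1 0.0098.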
